A study of Mus musculus with 9 samples.

Results

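The genes described here are the ligands and receptors of the 4 classical axon guidance systems and their close relatives, measured in the newborn mouse brain, in cells lining the ventricles. They were chosen by symbol: semaphorins of classes 3 to 7, plexins, neuropilins, ephrins, Eph receptors, Slits, Robos, netrins, netrin-Gs, draxin, and the receptors Dcc, Neo1 and Unc5a to Unc5d. Of the 19938 genes on the arrays with a probe set of 1 gene symbol, 71 matched, 37 ligands and 34 receptors. These were 20 semaphorins, 11 plexins and neuropilins, 8 ephrins, 13 Eph receptors, 3 Slits, 4 Robos, 5 netrins and netrin-Gs, draxin, and 6 netrin and draxin receptors. Ephb2 and Ntng2, which match the same pattern, and the antisense transcript Plxna4os1 were not analysed here.

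The arrays compare 3 genotypes of C57BL/Ka newborns. KO arrays hold RNA of Prdm16LacZ/LacZ mice, in which both copies of Prdm16 carry the LacZ allele, HET arrays RNA of Prdm16LacZ/+ mice with 1 wild-type copy, and WT arrays RNA of Prdm16+/+ mice with 2, and each genotype has 3 arrays. Ventricular zone cells were dissected and lysed without culture or treatment, their RNA was amplified, and each array holds a bulk sample. No other allele or agent is named in the labels. The labels name no promoter or cell type that restricts the LacZ allele. Nothing in them says that the arrays of a genotype came from separate animals, so the p-values describe how arrays of a genotype vary, and that variation may be technical.

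Axon guidance molecules are surface or secreted proteins that growing axons and migrating neurons read as attraction or repulsion. Semaphorins act through plexins, with neuropilins as co-receptors for most of class 3, ephrins through Eph receptors, Slits through Robos, and netrins through Dcc, neogenin (Neo1) and the Unc5 receptors. In the newborn forebrain the same molecules also steer newborn neurons away from the ventricular zone, and several are made by the progenitors themselves. Prdm16 encodes a zinc finger regulator of stem cell and progenitor gene expression.

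All values are the deposited log2 values, and a difference between genotypes is a log2 change. Each probe set binds its target with its own strength, so values of different genes are not set against each other as amounts. The sums of cell type markers given below add linear values of different genes, so the brightest probe sets weigh most in them. Each sum is compared only between arrays. Prdm16 had log2 values of 5.69, 6.41 and 6.17 in KO arrays, 6.995, 7.34 and 6.998 in HET arrays, and 7.62, 7.57 and 7.23 in WT arrays. Every KO array lay below every HET and WT array, and Prdm16 fell by 1.38 on the log2 scale in KO against WT (SE 0.18, limma adjusted p = 0.010). Array medians lay between 5.80 and 5.92. The median SD of a guidance gene was 0.14 in KO, 0.125 in HET and 0.078 in WT arrays. KO replicate 2 and HET replicate 1 had the lowest weights when arrays were weighted by their spread, 0.364 and 0.547, and results are also given without them where that changes a call. None of the 71 genes had a mean below the lower quartile of every array, against 19.4% of all genes.

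A feature of the deposited values touches several of these genes. In 42 of the 71, 59.2%, 2 or more arrays hold the same value to every deposited digit, and over all genes the share was 62.9%. In 4 of them, Draxin, Ephb6, Neo1 and Slit1, all 3 arrays of a genotype are identical, 5.63% against 6.42% of all genes; for Draxin and Slit1, 2.82% against 1.80% of all genes, these are the HET arrays. For these 4 the SD within that genotype is 0, and the cause of the ties was not tested.

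The comparison of KO with WT asks which guidance genes differ when both copies of Prdm16 are lost. Of the 71 genes, 1 rose, Draxin, and none fell (limma over all 19938 genes, Benjamini-Hochberg adjusted p under 0.05). Over all genes 0.451% passed, 0.166% upward and 0.286% downward. At an unadjusted p under 0.05 there were 12 guidance genes, or 16.9%, against 6.15% of all genes. Of these, 10 lay higher in KO (Draxin, Epha3, Epha5, Epha6, Ephb3, Nrp2, Plxna1, Plxna4, Sema4c and Sema6b), or 14.1% against 3.28% of all genes. The other 2 lay lower (Sema3c and Slit2), or 2.82% against 2.87%. The count of both directions at this level was 7 without WT replicate 1 and 7 without WT replicate 2, each 9.86% of the 71. Over all genes 4% and 4.82% reached the same level.

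**Figure D1:**
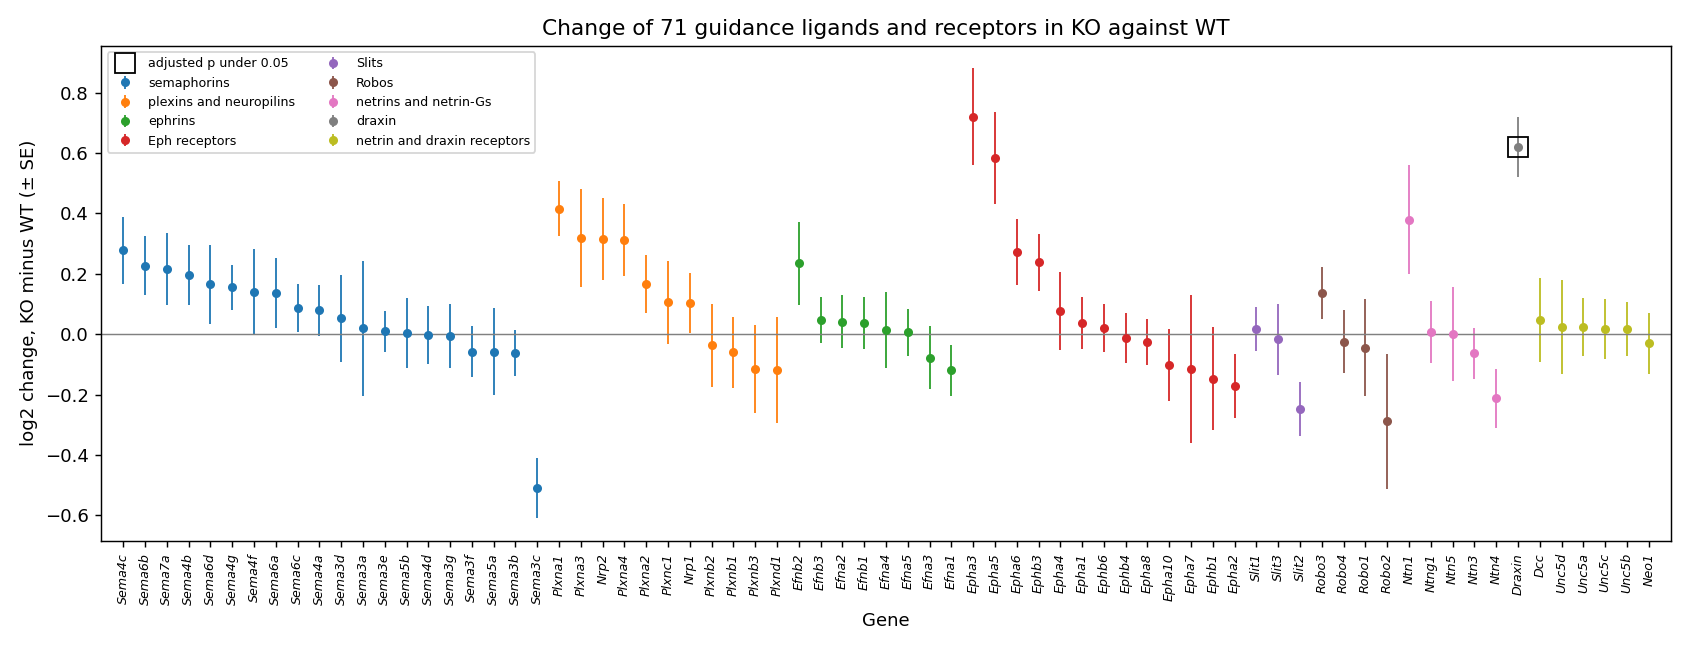
Log2 change in KO against WT for each of the 71 genes (points, with the standard error of the fit), grouped and coloured by family. Draxin, boxed, is the 1 gene that passed over all genes; Epha3 and Epha5 lie highest among Eph receptors and Sema3c lowest of all.

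The typical guidance gene differed little. The median log2 change of the 71 was 0.02, against 0.01 for all genes, and 45 of the 71, 63.4%, lay above 0, against 52.6% of all genes. The ligands had a median of 0.02 and the receptors of 0.02. In 10 genes every KO array lay above every WT array (14.1% against 5.63% of all genes) and in 2 every KO array lay below (2.82% against 4.34%), together 16.9% against 9.98%. The genes are described next by signalling system.

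Draxin, a secreted repellent of forebrain axons that binds Dcc, was the guidance gene that passed. Its log2 values were 7.40, 7.13 and 7.47 in KO arrays, 6.999 in each of the 3 HET arrays, and 6.73, 6.58 and 6.82 in WT arrays. The 3 genotypes did not overlap, with KO highest and HET between. Draxin was the 1 guidance gene (1.41%) with KO above HET above WT in every array, an order found in 0.160% of all genes. Draxin rose by a log2 change of 0.62 in KO against WT, or 1.54-fold (SE 0.10, n = 3 arrays per genotype, limma adjusted p = 0.028).

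The fit shares one spread among the genotypes, so the identical HET values of Draxin enter it. With only the KO and WT arrays in the fit the log2 change was the same and the adjusted p was 0.15. The call was also lost with each array centred on its median (adjusted p = 0.058), without KO replicate 1 (0.13) or 3 (0.13), without HET replicate 2 (0.062) or 3 (0.053), and without WT replicate 1 (0.14), 2 (0.16) or 3 (0.072). It was kept without KO replicate 2 and HET replicate 1 together (0.030). Over all settings the log2 change stayed between 0.55 and 0.72.

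Draxin and Prdm16 lie on the same chromosome, with 77 measured genes between them in the order of the GRCm38.p6 annotation. Sequence near a targeted allele is inherited with it, so for Draxin loss of Prdm16 and a difference in linked sequence cannot be told apart. Of those 77 genes, 1 passed in KO against WT (Fbxo2, named after its values were seen), and 5 higher and 2 lower genes had an unadjusted p under 0.05, 9.09% against 6.15% of all genes. The other 4 guidance genes of that chromosome, Epha2, Epha7, Epha8 and Epha10, lay between -0.17 and -0.03 and did not pass.

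The promoter windows of the called gene and of the lowest and highest changes, Sema3c and Epha3, are shown for reference, as 300 bases around the RefSeq start of each gene (GRCm38.p6). The windows are chr4:148130649-148130948 on the minus strand, chr5:17574566-17574865 on the plus strand and chr16:63864126-63864425 on the minus strand, each written 5′ to 3′ along the gene. Capitals mark the matches, on either strand, to CAGCTG and CAGATG, forms of the E-box bound by proneural factors, and to GATAAG, a core of the sequence bound by the zinc fingers of Evi1, the close relative of PRDM16. The motifs do not overlap here.
Draxin promoter: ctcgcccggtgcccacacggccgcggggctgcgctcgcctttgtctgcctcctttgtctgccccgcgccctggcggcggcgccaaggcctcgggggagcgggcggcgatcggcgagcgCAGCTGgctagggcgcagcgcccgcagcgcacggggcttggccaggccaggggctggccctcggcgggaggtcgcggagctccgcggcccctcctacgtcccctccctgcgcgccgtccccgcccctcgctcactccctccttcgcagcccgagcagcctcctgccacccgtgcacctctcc
Sema3c promoter: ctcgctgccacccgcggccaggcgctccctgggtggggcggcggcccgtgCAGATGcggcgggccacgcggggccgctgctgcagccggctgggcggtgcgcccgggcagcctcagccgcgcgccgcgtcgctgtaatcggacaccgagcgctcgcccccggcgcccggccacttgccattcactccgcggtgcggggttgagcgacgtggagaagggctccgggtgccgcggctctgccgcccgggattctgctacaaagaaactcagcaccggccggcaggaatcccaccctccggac
Epha3 promoter: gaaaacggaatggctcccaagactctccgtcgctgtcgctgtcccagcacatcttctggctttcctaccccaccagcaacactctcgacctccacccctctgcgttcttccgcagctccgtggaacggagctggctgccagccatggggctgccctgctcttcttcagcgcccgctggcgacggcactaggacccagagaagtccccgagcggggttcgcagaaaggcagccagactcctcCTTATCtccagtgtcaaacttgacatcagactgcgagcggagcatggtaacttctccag

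Each window held 1 of the 3 motifs. The Draxin window held CAGCTG, starting at position -132 from the start site, the Sema3c window CAGATG at -200, and the Epha3 window GATAAG, read on the other strand, at -9. Among 32544 mouse promoter windows of this length, 16.4% held CAGCTG, 17.1% CAGATG and 7.32% GATAAG. Among the 77 windows of the 61 guidance genes with an entry, the shares were 16.9%, 6.49% and 2.60%. A match is a description of the letters and says nothing of binding.

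The receptors that read netrins and draxin lay close to 0. Their log2 changes lay between -0.03 and 0.05, and none passed. Dcc, the receptor through which netrin attracts axons, had log2 values of 9.19, 9.56 and 9.34 in KO arrays and 9.11, 9.54 and 9.29 in WT arrays, which overlap. Neo1, the receptor of netrins and of repulsive guidance molecules, had values of 10.21, 9.90 and 10.31 in KO arrays against 10.17 in each WT array. Unc5d, a repulsive netrin receptor, lay between 7.19 and 7.53 in KO arrays and between 7.25 and 7.54 in WT arrays, and its second probe set had a change of 0.08 against 0.02 for the first. Unc5b lay between 5.22 and 5.26 in KO arrays and between 5.21 and 5.22 in WT arrays.

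Of the netrins, 2 stood apart from 0 without passing. Ntn1, the founding netrin, had log2 values of 6.49, 6.98 and 6.58 in KO arrays and 6.08, 6.74 and 6.09 in WT arrays, with WT replicate 2 above 2 of the KO arrays (change 0.38, SE 0.18). Without KO replicate 2 the Ntn1 change was 0.23, and without WT replicate 2 it was 0.60. Ntn4, a netrin of basement membranes, had values of 5.92, 6.18 and 5.94 in KO arrays and 6.32, 6.18 and 6.18 in WT arrays (change -0.21, SE 0.098). Both had an adjusted p of 0.83. Ntng1, a membrane-anchored netrin-G, had a change of 0.01 and its second probe set -0.02, and Ntn5 lay between 4.52 and 5.20 in KO arrays and 4.74 and 4.80 in WT arrays.

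Among the 20 semaphorins, Sema3c had the largest difference. This secreted semaphorin of class 3 signals through neuropilins and plexin D1. Its log2 values were 5.56, 5.30 and 5.38 in KO arrays, 5.80, 5.75 and 5.75 in HET arrays, and 5.96, 5.75 and 6.06 in WT arrays. Every KO array lay below every HET and WT array, while HET and WT overlapped. The log2 change was -0.51 (SE 0.099), with an adjusted p of 0.073 that did not pass and ranged from 0.058 to 0.35 over the settings run. The values lay below the array median in 7 of the 9 arrays.

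The other class 3 semaphorins lay near 0. Their log2 changes lay between -0.06 and 0.05. Sema3a, a repellent of cortical axons, had values of 7.28, 6.65 and 7.45 in KO arrays and 7.31, 6.96 and 7.05 in WT arrays, which overlap. Sema3d, the dimmest of the semaphorin probe sets, lay between 4.67 and 4.74 in KO arrays and between 4.47 and 4.94 in WT arrays.

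The membrane-bound classes lay mostly above WT. In class 4, 5 of 6 members had a log2 change above 0 (median 0.15), and in classes 5 to 7, 6 of 7 did (median 0.14). Over all genes 52.6% lay above 0. None of these semaphorins passed. Sema4c had values of 6.67, 6.79 and 7.02 in KO arrays and 6.37, 6.61 and 6.67 in WT arrays (change 0.28, SE 0.11, adjusted p = 0.73). The groups met at 6.67, in KO replicate 1 and WT replicate 3, and without KO replicate 3 the change was 0.18. Sema4g had values of 7.41, 7.47 and 7.33 in KO arrays against 7.18, 7.29 and 7.28 in WT arrays, with no overlap (change 0.16, SE 0.074, adjusted p = 0.84). Sema6b, a transmembrane ligand of A plexins, had values of 6.84, 7.03 and 6.86 in KO arrays and 6.55, 6.66 and 6.84 in WT arrays (change 0.23, SE 0.098, adjusted p = 0.78). Its 2 probe sets hold the same value in each array and are 1 measurement. Sema6d, another transmembrane semaphorin that binds plexin A1, had values of 9.01, 8.95 and 9.02 in KO arrays and 8.95, 8.88 and 8.66 in WT arrays.

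The A plexins, receptors of semaphorins, lay higher in KO in all 4 members (median 0.32). In each, every KO array lay above every WT array, where 5.63% of all genes did so in that direction; the class was singled out after its values were seen. None passed. Plxna1 had log2 values of 7.90, 8.12 and 7.88 in KO arrays, 7.69, 7.88 and 7.81 in HET arrays, and 7.50, 7.61 and 7.54 in WT arrays. Its KO and HET arrays overlapped, and both lay above WT. The change in KO was 0.42 (SE 0.090, adjusted p = 0.13, range 0.052 to 0.55 over the settings).

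Plxna4, which transduces class 3 and class 6 signals, had log2 values of 9.55, 9.49 and 9.72 in KO arrays, 9.26, 9.36 and 9.15 in HET arrays, and 9.41, 9.02 and 9.40 in WT arrays (change in KO 0.31, SE 0.12, adjusted p = 0.69). Without WT replicate 2 the Plxna4 change was 0.18. Plxna3 had values of 6.82, 7.30 and 6.82 in KO arrays, 6.72, 7.32 and 6.95 in HET arrays, and 6.68, 6.58 and 6.72 in WT arrays, so KO and HET each had 1 array near 7.3. Plxna2 had values of 9.80, 9.60 and 9.79 in KO arrays against 9.57, 9.55 and 9.57 in WT arrays (change 0.17). The 5 plexins of classes B, C and D lay between -0.12 and 0.11, among them Plxnb3, which spanned 5.30 to 5.56 in KO arrays and 5.51 to 5.66 in WT arrays.

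Neither neuropilin passed against WT. Nrp2, the co-receptor for Sema3f that also sorts migrating interneurons, had log2 values of 6.47, 5.92 and 6.35 in KO arrays, 5.82, 5.50 and 5.65 in HET arrays, and 5.92, 5.91 and 5.97 in WT arrays. KO replicate 2 lay among the WT arrays, and the other two KO arrays lay above them (change 0.32, SE 0.14, adjusted p = 0.78). The change was 0.20 without KO replicate 1 and 0.48 without KO replicate 2. Without KO replicate 2 and HET replicate 1 the change in Nrp2 against HET passed, as given below. Nrp1, the co-receptor for Sema3a, lay between 6.82 and 6.93 in KO arrays and between 6.67 and 6.82 in WT arrays (change 0.10).

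**Figure D2:**
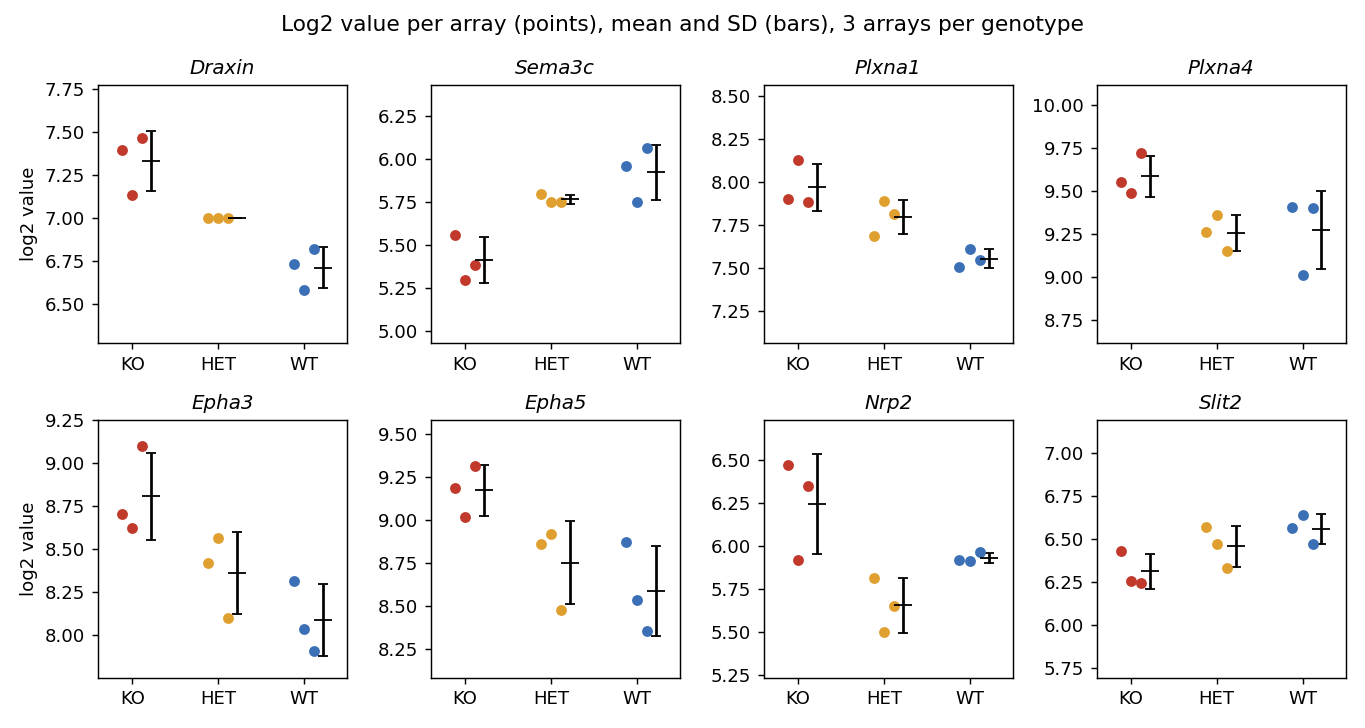
Log2 values of 8 guidance genes in the KO, HET and WT arrays (points, 1 per array), with the mean and SD of each genotype (bars, n = 3); each panel spans 1.5 log2 units. Draxin falls into 3 separate groups with identical HET values, Sema3c and Slit2 lie lower in KO than in WT, and the KO arrays of Plxna1, Plxna4, Epha3 and Epha5 lie above all WT arrays.

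Among the 13 Eph receptors, the A-type receptors Epha3 and Epha5 had the largest differences. Both bind membrane-anchored A ephrins and take part in sorting axons by position. Epha3 had log2 values of 8.70, 8.62 and 9.10 in KO arrays, 8.42, 8.56 and 8.10 in HET arrays, and 8.31, 8.04 and 7.91 in WT arrays. All KO arrays lay above all others, while HET and WT overlapped. The change was 0.72, or 1.65-fold (SE 0.16), the largest of the 71 genes, with an adjusted p of 0.14 that did not pass in any setting (0.077 to 0.50).

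Epha5 repeated this order. Its log2 values were 9.19, 9.02 and 9.31 in KO arrays, 8.86, 8.92 and 8.48 in HET arrays, and 8.87, 8.54 and 8.36 in WT arrays (change 0.58, SE 0.15, adjusted p = 0.27). Epha6 had values of 6.08, 6.29 and 6.03 in KO arrays and 6.03, 5.69 and 5.86 in WT arrays (change 0.27, SE 0.11, adjusted p = 0.74). Ephb3, a receptor of B ephrins, had values of 6.66, 6.96 and 6.67 in KO arrays and 6.54, 6.54 and 6.49 in WT arrays, with no overlap (change 0.24, SE 0.095, adjusted p = 0.74). KO replicate 2 was the highest Ephb3 array, and without it the change was 0.14.

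The remaining 9 Eph receptors lay between -0.17 and 0.08. Epha4, which binds ephrins of both types, had log2 values of 9.47, 9.42 and 9.90 in KO arrays and 9.54, 9.55 and 9.47 in WT arrays, which overlap. Epha1 lay between 4.87 and 5.02 in KO arrays and between 4.86 and 4.92 in WT arrays. For Ephb1 and Epha10 the second probe sets gave -0.16 and -0.04, against -0.15 and -0.10 for the first.

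The ephrins lay closer to 0 than Epha3 and Epha5. None of the 8 reached an unadjusted p under 0.05 (all genes 6.15%), and none had groups that did not overlap (all genes 9.98%). Among 8 genes, none is close to what those shares give. The log2 changes of the ephrins lay between -0.12 and 0.23. Efnb2, a B ephrin of progenitors and vessels, had values of 8.81, 8.74 and 9.32 in KO arrays and 8.61, 8.75 and 8.81 in WT arrays, and KO replicate 3 stood above the others (change 0.23). Efna1 lay between 4.71 and 4.79 in KO arrays and between 4.78 and 4.99 in WT arrays. Efna5, a ligand of Epha3 and Epha5, lay between 6.82 and 6.84 in KO arrays and between 6.80 and 6.84 in WT arrays.

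In the Slit and Robo system, Slit2 differed most by its standard error. Slit2, a secreted repellent, had log2 values of 6.43, 6.26 and 6.25 in KO arrays, 6.57, 6.47 and 6.33 in HET arrays, and 6.56, 6.64 and 6.47 in WT arrays. KO lay below WT in every array and overlapped HET (change -0.25, SE 0.091, adjusted p = 0.65). Slit1 lay between 6.04 and 6.18 in KO arrays and between 6.04 and 6.15 in WT arrays, and Slit3 between 6.24 and 6.71 in KO arrays and between 6.47 and 6.53 in WT arrays.

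The Robos did not pass. Robo2, a Slit receptor of migrating neurons and of axons, had values of 10.31, 10.41 and 9.86 in KO arrays and 10.52, 10.36 and 10.56 in WT arrays, and KO replicate 3 was the lowest (change -0.29). Robo1 had a change of -0.04 and Robo4, the Robo of blood vessels, of -0.02. Robo3 lay between 4.77 and 5.04 in KO arrays and between 4.80 and 4.83 in WT arrays.

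**Figure D3:**
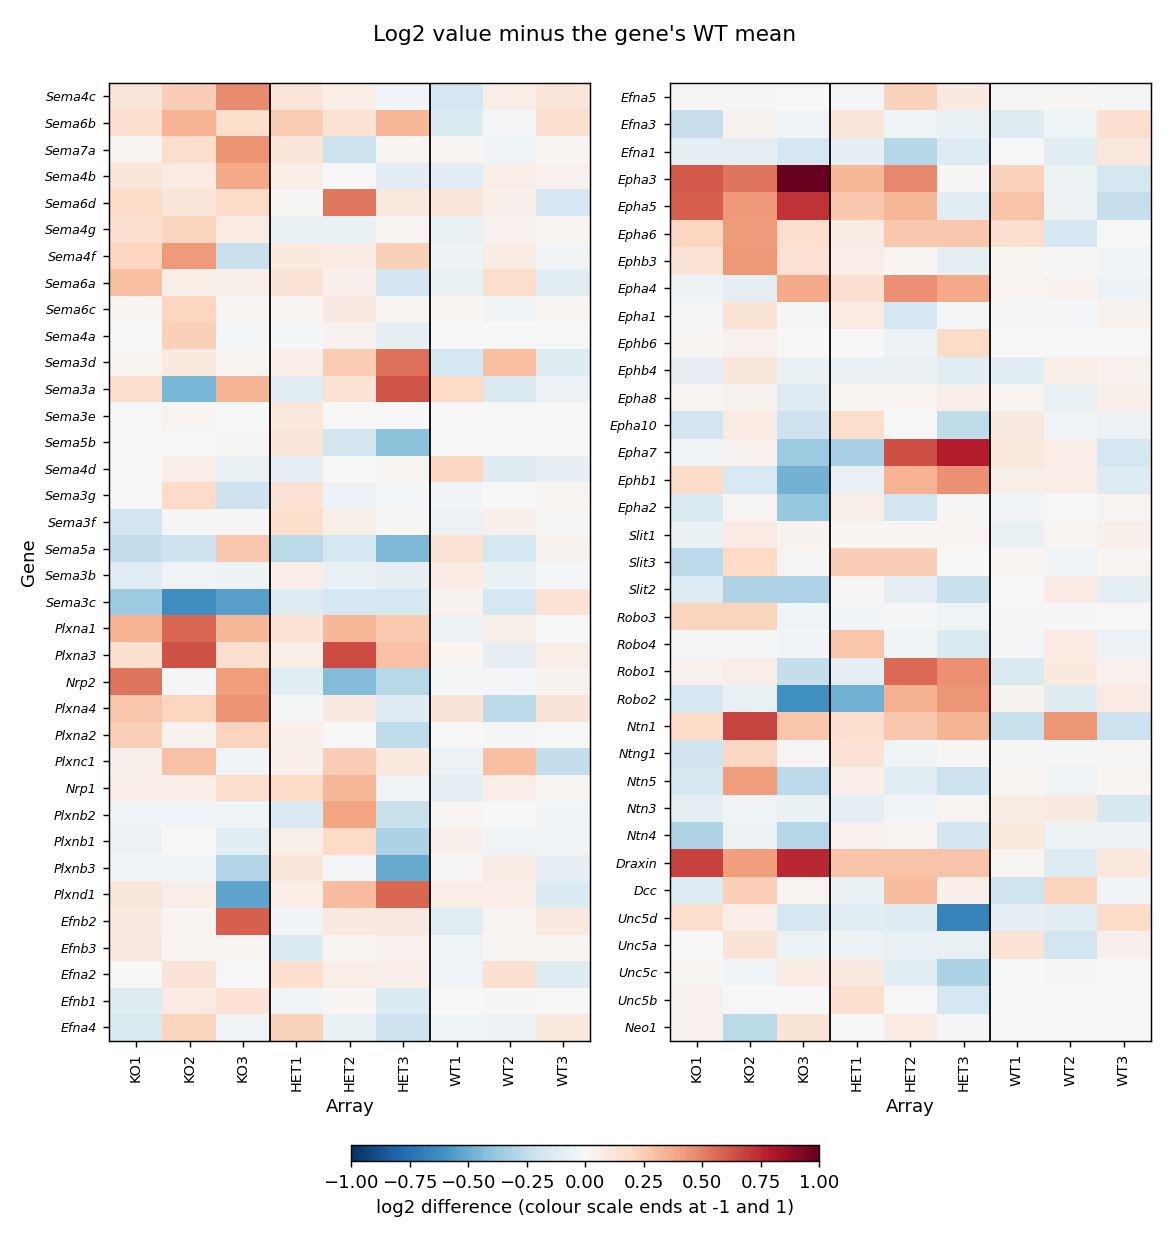
Log2 value of each of the 71 genes in each array minus the mean of the gene's 3 WT arrays, in the columns KO, HET and WT. Red is above and blue below the WT mean; the rows of Draxin, Epha3, Epha5 and Plxna1 are red in all KO arrays and that of Sema3c blue, and the Epha7, Robo1, Robo2 and Ephb1 rows differ among the HET arrays.

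Partners that carry these signals into the cell, and other guidance molecules, were taken from a separate list of 86 genes, of which 82 were measured. In KO against WT 1 of the 82 rose, Rgma, a repulsive guidance molecule that binds neogenin, and none fell. Over all genes 0.451% passed, 0.166% upward and 0.286% downward. Rgma had log2 values of 7.73, 7.69 and 7.81 in KO arrays, 7.39, 7.39 and 7.23 in HET arrays, and 6.93, 7.23 and 6.80 in WT arrays. KO lay above HET and WT throughout (change 0.75, or 1.68-fold, SE 0.11, limma adjusted p = 0.017). The call was lost with only the KO and WT arrays (adjusted p = 0.11) and without KO replicate 1 (0.077), 2 (0.055) or 3 (0.093), WT replicate 1 (0.12) or 3 (0.072), or KO replicate 2 and HET replicate 1 together (0.081).

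At an unadjusted p under 0.05 there were 14 genes of that list, 10 higher and 4 lower in KO, 17.1% against 6.15% of all genes. KO and WT arrays did not overlap for 19 genes of the list that lay higher in KO and 5 that lay lower, together 29.3% against 9.98% of all genes. The list's median change was 0.02. Rgmb, a relative of Rgma and a co-receptor for bone morphogenetic proteins, had values of 8.18, 7.89 and 8.22 in KO arrays and 7.43, 7.64 and 7.72 in WT arrays (change 0.50, SE 0.11, adjusted p = 0.16). Mical2, of a family of enzymes that take actin filaments apart, had a log2 change of -0.44 (SE 0.10, adjusted p = 0.17). Cxcr4 and Ackr3, the receptor and the scavenger receptor of the chemokine Cxcl12, had log2 changes of 0.49 (SE 0.14, adjusted p = 0.37) and 0.45 (SE 0.11, adjusted p = 0.21).

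The co-receptor of glial cell line-derived neurotrophic factor, Gfra1, had a log2 change of -0.43 (SE 0.12, adjusted p = 0.28). Dpysl4, a collapsin response mediator of the semaphorin pathway, had a log2 change of 0.32 (SE 0.093, adjusted p = 0.38) and Tiam1, an activator of Rac, of 0.29 (SE 0.093, adjusted p = 0.51). None of these passed in the fit of all 9 arrays.

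Markers of other cell types also differed between KO and WT, and their part in the guidance values was not tested. Some of the markers came from lists of an earlier pass over these data, so their differences are not independent of that choice. The sum of the linear values of 9 astrocyte markers lay between 1830 and 1950 in KO arrays. In WT arrays this sum lay between 2640 and 3210. Of the 9, 3 fell (Clu, Aqp4 and Apoe), where 0.286% of all genes passed downward. Another 2 had changes above 0, Aldh1l1 (0.21, with every KO array above every WT array) and S100b (0.06, overlapping WT). For 8 ependymal markers the sums lay between 466 and 644 in KO arrays and between 767 and 803 in WT arrays. All 8 had a change below 0, where 52.6% of all genes lay above 0, and none passed. At an unadjusted p under 0.05, 5 lay lower, 62.5% against 2.87% of all genes in that direction. Every KO array lay below every WT array for 5, 62.5% against 4.34% of all genes. Enkur had the largest change (-1.18, SE 0.22, limma adjusted p = 0.054). The sums for 9 measured markers of the ventral forebrain and interneuron lineage lay between 7270 and 7990 in KO arrays. In WT arrays they lay between 6470 and 7220, again with none passing. Lhx6, Gad1 and Sp9 lay higher in KO at an unadjusted p under 0.05, 33.3% against 3.28% of all genes in that direction. Their log2 changes were 0.72, 0.24 and 0.26. Lhx6, Gad1 and Dlx1 (0.20) did not overlap WT, 33.3% against 5.63% of all genes in that direction. For 7 markers of meninges and fibroblasts the sums lay between 314 and 379 in KO arrays and between 396 and 456 in WT arrays. Of the 7, 1 fell, Ogn (log2 change -1.37, SE 0.19, limma adjusted p = 0.012). The other markers of this list had changes between -0.18 and 0.05 and overlapped WT, so the list differed mainly through Ogn. For 5 markers of cortical intermediate progenitors the sums lay between 110 and 120 in KO arrays and between 127 and 134 in WT arrays. None of the 5 passed, and Neurod1 and Neurod4 lay below the lower quartile. Eomes (-0.32) and Neurog1 (-0.31) lay lower at an unadjusted p under 0.05, 40% against 2.87% of all genes in that direction. Both also lay below WT without overlap, 40% against 4.34% of all genes. Neurog2 (0.03) was the 1 marker above 0. In a tissue sample, fewer cells of a type and less RNA per cell cannot be told apart.

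The sums of the other lists overlapped between KO and WT. An overlapping sum can hold markers that differ in opposite directions. Of 7 measured oligodendrocyte lineage markers, 2 lay higher in KO without overlap (Olig1 and Pdgfra) and 2 lower (Olig2 and Cnp). Together these were 57.1% against 9.98% of all genes, and no marker of that list passed. The sums for 10 radial glia markers lay between 7680 and 8380 in KO arrays and between 7680 and 8720 in WT arrays, and none of the 10 had a mean below the lower quartile of every array. None of the 10 passed. Of them 3 (Pax6, Prom1 and Lhx2) lay lower in KO at an unadjusted p under 0.05, 30% against 2.87% of all genes in that direction. Their log2 changes were -0.41, -0.57 and -0.42. Prom1 and Lhx2 did not overlap WT, 20% against 4.34% of all genes in that direction. The sums for 10 markers of postmitotic neurons lay between 9370 and 10200 in KO arrays and between 9540 and 10100 in WT arrays. These neurons make many of the guidance receptors, and Neurod6 lay below the lower quartile. Of the 10, 8 had a change above 0 (median 0.10, all genes 52.6% above 0) and none passed. Nefm (0.44) and Neurod6 (0.28) lay higher at an unadjusted p under 0.05, 20% against 3.28% of all genes in that direction. Nefm lay higher and Stmn2 (-0.27) lower without overlap, 20% against 9.98% of all genes. For 10 endothelial and pericyte markers the sums lay between 890 and 961 in KO arrays and between 914 and 964 in WT arrays. Slco1a4 lay below the lower quartile. The markers of midbrain, hindbrain and thalamus gave 616 to 626 in KO arrays and 575 to 617 in WT arrays. Whether the dissection differed between genotypes was not tested.

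HET against WT shows the guidance genes with 1 copy of Prdm16 lost. No guidance gene passed by limma, nor did any gene on the array (0% of all genes, smallest adjusted p 0.993). At an unadjusted p under 0.05 there were 4, Draxin, Plxna1, Epha4 and Sema6b, all higher in HET, or 5.63% against 4.05% of all genes and 2.40% in that direction; 1.66% of all genes and no guidance gene lay lower. This count was 16 without HET replicate 1 (22.5%, all genes 11.4%), 13 with array weights (18.3%, all genes 8.77%), 8 without WT replicate 2 (11.3%, all genes 3.33%) and 2 without WT replicate 3 (2.82%, all genes 2.91%). The median log2 change of the 71 was 0.02, and 38 of them, 53.5%, lay above 0, against 51.5% of all genes. HET and WT arrays did not overlap for 3 genes that lay higher in HET (4.23%, all genes 3.75%) and 3 that lay lower, Nrp2, Robo3 and Sema5a (4.23%, all genes 3.10%), together 8.45% against 6.85%.

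Among these 4, the HET and WT arrays did not overlap for 3. Draxin differed by 0.29 (SE 0.10) and Plxna1 by 0.24 (SE 0.090), with the array values given above. Epha4 had log2 values of 9.67, 9.98 and 9.89 in HET arrays and 9.54, 9.55 and 9.47 in WT arrays (change 0.33, SE 0.13). Sema6b had values of 6.93, 6.82 and 7.02 in HET arrays against 6.55, 6.66 and 6.84 in WT arrays, which overlap (change 0.24, SE 0.098).

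Of the next genes by p, none passed. Sema5a, a transmembrane semaphorin, had values of 7.63, 7.71 and 7.44 in HET arrays and 8.03, 7.72 and 7.93 in WT arrays, with HET lower throughout (change -0.30, SE 0.14). Plxna3 differed by 0.34 (SE 0.16), or by 0.18 without HET replicate 2, and Nrp2 by -0.28 (SE 0.14), with every HET array below every WT array. Sema3d had values of 4.71, 4.90 and 5.19 in HET arrays and 4.47, 4.94 and 4.53 in WT arrays (change 0.29, SE 0.14). Without HET replicate 3 the Sema3d change was 0.16, and without WT replicate 2 it was 0.44. HET and KO changes against WT share the WT arrays and are given side by side only.

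The HET arrays varied among themselves in a group of neuronal receptors. Epha7, an Eph receptor of the cortex, had log2 values of 8.50, 8.58 and 8.17 in KO arrays, 8.21, 9.18 and 9.32 in HET arrays, and 8.64, 8.60 and 8.36 in WT arrays. Robo2 had values of 10.003, 10.84 and 10.92 in HET arrays and Robo1 of 10.12, 10.78 and 10.68. Ephb1 had values of 8.06, 8.48 and 8.59 in HET arrays. In each of these HET replicate 1 was the lowest HET array. It was also the lowest HET array for 8 of the 10 markers of postmitotic neurons, among them Nefl, with log2 values of 7.60, 8.39 and 8.71 in HET arrays, and Syt1, with 8.01, 8.77 and 9.05 in HET arrays. The sums of the 10 neuron markers spanned 9370 to 10200 in KO arrays, 9080 to 11000 in HET arrays and 9540 to 10100 in WT arrays, and their part in the receptor values was not tested.

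The comparison of KO with HET asks what the loss of the remaining copy adds. No guidance gene passed by limma in the fit of all arrays, where 0.206% of all genes did, 0.0451% upward and 0.160% downward. At an unadjusted p under 0.05 there were 11, or 15.5% against 6.16% of all genes, with 8 higher in KO (Draxin, Epha3, Epha5, Ephb3, Nrp2, Plxna2, Plxna4 and Sema4g; 11.3%, all genes 2.87%) and 3 lower (Ephb1, Plxnd1 and Sema3c; 4.23%, all genes 3.30%). KO and HET arrays did not overlap for 8 genes that lay higher (11.3%, all genes 3.45%) and for Sema3c, which lay lower (1.41%, all genes 3.09%), together 12.7% against 6.54%. Of the 71, 36 lay above 0, 50.7% against 51.0% of all genes. The count at an unadjusted p under 0.05 was 20 without HET replicate 1 (28.2%, all genes 11.6%) and 5 without HET replicate 3 (7.04%, all genes 4.70%). It was 7 with only the KO and HET arrays (9.86%, all genes 4.02%). Without KO replicate 2 and HET replicate 1 together it was 17 (23.9%, all genes 12%).

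Nrp2 stood first in this comparison. Every KO array lay above every HET array (change 0.59, SE 0.14, adjusted p = 0.23). It passed without KO replicate 2 (change 0.76, limma adjusted p = 0.043) and without KO replicate 2 and HET replicate 1 together (0.84, adjusted p = 0.025). Sema3c differed by -0.35 (SE 0.099, adjusted p = 0.42) and Draxin by 0.33 (SE 0.10, adjusted p = 0.50), with no overlap in either.

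Epha3 and Epha5 differed from HET by 0.45 (SE 0.16) and 0.42 (SE 0.15), Plxna4 by 0.33 (SE 0.12) and Ephb3 by 0.24 (SE 0.095), or by 0.14 without KO replicate 2. Sema4g had log2 values of 7.41, 7.47 and 7.33 in KO arrays and 7.18, 7.19 and 7.27 in HET arrays, with no overlap (change 0.19, SE 0.074). These had adjusted p-values between 0.67 and 0.74. Epha7 passed without HET replicate 1 (change -0.83, SE 0.14, limma adjusted p = 0.048), while with all arrays its change was -0.49 (SE 0.25) and did not pass. All 7 class 3 semaphorins lay below HET, from -0.35 to -0.03 (median -0.14). All 6 of class 4 lay above HET, from 0.002 to 0.22 (median 0.15). Over all genes 51% lay above 0. Several of these changes were smaller than their SE, and none of these semaphorins passed.

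**Figure D4:**
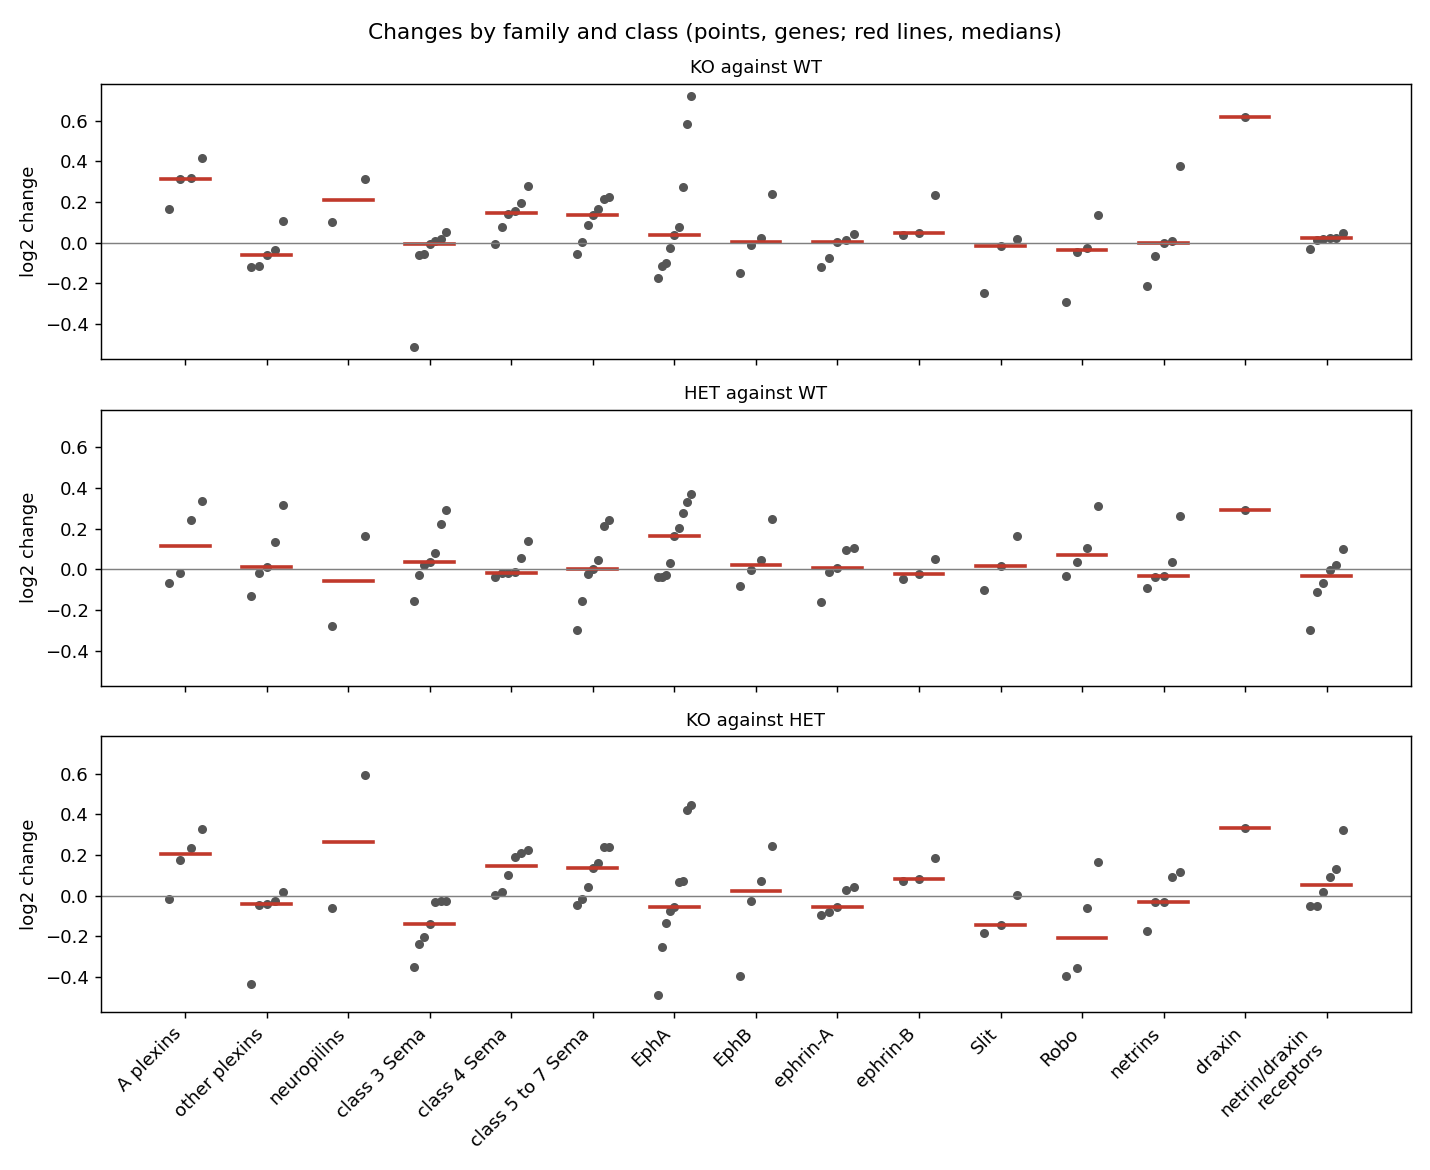
Log2 changes of the 71 genes by class (points, 1 per gene; red lines, medians) in KO against WT, HET against WT and KO against HET. The 4 A plexins lie above 0 in KO against WT, and the netrin and draxin receptors lie between -0.03 and 0.05 there.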

How the data were processed

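The arrays were Affymetrix Mouse Gene ST 1.0, 3 per genotype, hybridised with cDNA amplified from total RNA, per the labels' protocols. The deposited table holds log2 values of 28940 probe sets. RMA, affy and limma are named, without versions, per the submitters' processing notes. RMA is a method of background correction, quantile normalization and summary of probes. Detection calls and scan batches were not used here. Of the probe sets, 21789 had 1 gene symbol in the platform annotation, 1621 several and 5530 none listed; the highest-mean probe set per gene left 19938 genes. Gene IDs of all 71 guidance genes were found in RefSeq's GRCm38.p6 table.

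Genotypes were compared by limma 3.58.1 in R 4.3.3, two-sided, with all 9 arrays in 1 fit and a mean per genotype, adjusted by Benjamini-Hochberg over all genes, with 0.05 as threshold; the fit was tested on simulated data. The number of arrays limits the precision. Members, gene lists and alternatives were chosen with earlier results of these data known. Genes named with full values were Prdm16, members called, the 15, 8 and 8 members with the smallest p in KO against WT, HET against WT and KO against HET, and the brightest and dimmest probe set of each family; 8 genes of the partner list were named likewise. Values of Sema3a, Nrp1, Efna5, Epha7, Ephb1, Robo1, Dcc and Unc5d were added after they were seen. Alternatives were a replicate block, 2 groups only, a trended and robust variance prior, weighting of arrays, leaving out the dimmest genes, all probe sets, mean of probe sets, quantile normalization, median centring, other thresholds and each array left out; leaving out KO replicate 2 and HET replicate 1 together was chosen after seeing the data.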

Additional observations from a re-analysis of the deposited data

How the results depend on the processing

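For 39 gene and comparison pairs under 19 alternatives, 0 changed sign; 720 values kept their side of the threshold, 16 lost a call (Draxin and Rgma in KO against WT) and 4 gained one (Nrp2 in KO against HET without KO replicate 2, or without it and HET replicate 1, and Rgmb and Ackr3 in KO against WT with array weights). The number of guidance genes passing in KO against WT, 1 of 71, became 0 with only the arrays compared or with median centring, 2 (Draxin and Sema3c) at an adjusted p under 0.10, and 0 to 1 when each array was left out; at an unadjusted p under 0.05 it was 12. In HET against WT it was 0 in each alternative with an adjusted p, and 4 at an unadjusted p under 0.05. In KO against HET it was 0 to 1 when each array was left out, 1 without HET replicate 1 and KO replicate 2 together, and 11 at an unadjusted p under 0.05. Leaving out the dimmest genes kept 62 of the 71. With the replicate block the numbers were 1, 0 and 0 for the 3 comparisons, and over all genes 72 in place of 90 in KO against WT and 19 in place of 41 in KO against HET. Deviations from the genotype mean correlated at -0.34 to 0.06 in 9 pairs of same-numbered arrays, and at -0.16 to 0.31 in differently numbered pairs. Deviations within a genotype sum to 0, which constrains these values. They cannot show whether arrays share a litter or a batch. Signal over background could not be judged, since detection calls were not used. The causes of these differences were not tested.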
